A study of Mus musculus with 29 samples.

Results

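The subject of this report is the difference in expression between CD150hi and CD150lo hematopoietic stem cells (HSC) of the same mouse, called the gap here, and how the gap differed between 5A3+/del and wild-type (WT) mice. The gap of a gene in a mouse is log2(FPKM + 1) in CD150hi HSC minus log2(FPKM + 1) in CD150lo HSC, so a positive gap means a higher level in CD150hi HSC and a gap of 1 means a doubling of FPKM + 1. The members are the 10 mice whose code in the sample labels ties a CD150hi library to a CD150lo library, 5 WT and 5 5A3+/del mice, which use 20 of the 29 samples of the series. The change of the gap (5A3+/del minus WT) is the genotype by population interaction, and it was examined for every gene that passed the filter on low values, 15409 genes.

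All mice were of the C57BL/6J strain and were 12.42 to 13.85 weeks old. WT mice have the genotype WT/WT, and 5A3+/del mice have the genotype WT/DEL, with 1 chromosome that lacks the segment from Fbxl13 to Srpk2 on chromosome band 5A3, which corresponds to human 7q22. The deletion was made with Cre in embryonic stem cells and passed through the germ line, so every cell of the animal carries it, and the line descends from selected stem cell clones and was backcrossed to C57BL/6J. The cells were sorted from bone marrow as c-kit+, lineage-negative and Sca-1+ cells without CD48 and CD41, and were divided by their CD150 surface level. RNA was amplified before library preparation.

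CD150, the product of Slamf1, is a surface receptor of the SLAM family that marks cells at the top of the hematopoietic hierarchy. HSC with a high CD150 level are known for strong self-renewal and for an output biased toward myeloid cells and platelets, whereas HSC with a low level yield more lymphoid cells. The gap compares the high and the low CD150 fraction of the sorting gate, which also held cells without CD150. The question is whether this gap differs between mice with and without the deletion.

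The 20 libraries held 23007381 to 38797569 fragments each, with 17346 to 21751 genes above 0. A limit of 3 fragments of a gene in a library is called the floor here. Values under it are pointed out but stayed in all gaps and tests. Reads were amplified and carry no molecular identifiers, so such floors cover counting error only. The level of a gene in a library is given below as normalized FPKM, which is the quantile-normalized value transformed back. One WT animal, mouse 3, had an Xist FPKM of 303 in CD150hi and 234 in CD150lo HSC, against at most 0.405 in the other libraries, so it differs in sex from the other mice. The gap was taken within each mouse. Without this mouse the gap change called 0 genes as well, and the medians of 5 gene lists described below changed sign: the deleted interval (to -0.01), immediate early genes (0.03), replication histones (-0.12), small nucleolar RNA (0.05) and sex-linked genes (-0.02).

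The genes of the sorting markers were checked first. Slamf1 was measured at 15.0, 15.1, 14.5, 12.6 and 14.8 normalized FPKM in CD150hi HSC of WT mice 1 to 5 and at 2.13, 1.63, 0.950, 2.43 and 0.783 in their CD150lo HSC. In 5A3+/del mice 1 to 5, Slamf1 was at 21.6, 12.6, 16.2, 10.7 and 19.4 in CD150hi HSC and at 0.244, 2.07, 1.00, 0.341 and 0.959 in CD150lo HSC. Every mouse thus had a positive Slamf1 gap, with a mean of 2.62 ± 0.47 (SD over 5 mice) for WT and 3.19 ± 0.73 for 5A3+/del mice, and the ranges of the genotypes overlapped. The change of the Slamf1 gap was 0.57 with a 95% interval from -0.21 to 1.35, so a difference of up to 1.35 in favor of a wider Slamf1 gap in 5A3+/del mice lay within the interval. Kit and Ly6a, which encode c-kit and Sca-1, had mean levels of 158 and 152 normalized FPKM over the 20 libraries and gap changes of -0.13 (95% interval -0.48 to 0.21) and 0.06 (-0.42 to 0.55). Cd48 and Itga2b, whose products CD48 and CD41 were gated out, had mean levels of 1.38 and 2.41, and their gap changes were 0.10 (-0.53 to 0.74) and 0.24 (-0.45 to 0.92).

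No gene passed the test of the gap change. limma with Benjamini-Hochberg adjustment called 0 of 15409 genes (0% called), and the smallest adjusted p was 0.999. At an unadjusted p under 0.05 there were 633 genes (4.11% of those tested), of which 308 (2%) had a higher and 325 (2.11%) a lower gap in 5A3+/del mice. The gaps of the 5 WT and the 5 5A3+/del mice did not overlap for 93 genes (0.604%), 47 with a higher and 46 with a lower gap in 5A3+/del mice. The median 95% interval reached 0.59 to either side of the estimate, and the whole interval lay within a change of 1 for 10437 genes (67.7%). A change of the gap by a factor of 2 or more in FPKM + 1 is therefore outside the interval for most genes, whereas for the rest the interval reached such a change. Some of the latter had a large estimate and not only a wide interval, such as Mansc1 (-1.45 to -0.57). For genes of low level a factor of 2 in FPKM itself is a smaller step on this scale, so it can lie inside an interval that stays within 1. Each interval holds for a single gene and is not adjusted for the number of genes tested. Leaving out 5A3+/del mouse 2 gave 1 call, AC159378.1, an annotated microRNA gene of few fragments with a change of 2.77 (limma adjusted p = 0.0303) that was 2.23 with all mice (limma adjusted p = 0.999).

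Among themselves, the mice shared little of the gap across the transcriptome. The Pearson correlation of the gap over the 15409 genes was 0.08 to 0.26 for the 20 pairs of mice of the same genotype and 0.08 to 0.25 for the 25 pairs of different genotype, as a description over genes that share libraries. The SD of the gap over all genes ran from 0.51 in 5A3+/del mouse 3 to 0.86 in 5A3+/del mouse 1, whose CD150hi library had the fewest genes above 0. When the 5 mice of a genotype were averaged, the mean gaps of WT and 5A3+/del mice had a Pearson correlation of 0.48 across genes.

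**Figure D1:**
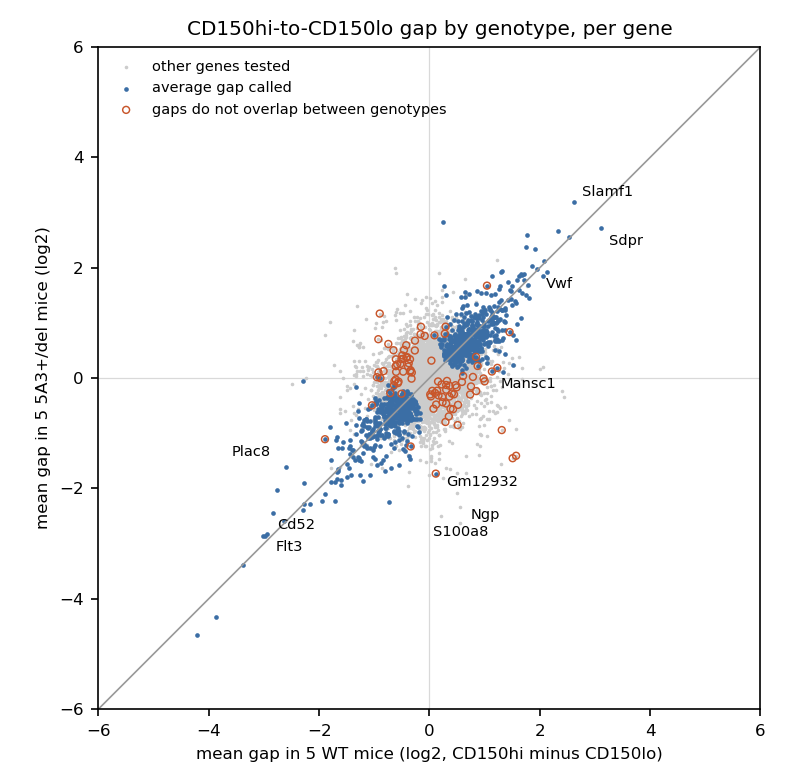
Mean gap per gene in 5 WT mice (x axis) and in 5 5A3+/del mice (y axis), both in log2 units, with the 1001 genes called for the average gap in blue, other genes in gray and the 93 genes whose gaps do not overlap between genotypes circled in red. Called genes lie along the line of equal gaps, Slamf1 and Sdpr at the upper end and Flt3 and Cd52 toward the lower end, while S100a8 and Ngp lie below the line near a WT gap of 0.

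The gap itself was clear when all 10 mice were averaged. The estimates of the average gap and of the gap change are independent in this balanced design, but both tests use the same residual spread, so genes called for the average gap tend to have a small one. The average gap passed the test (limma, adjusted p under 0.05) for 1001 genes (6.5%), 549 (3.56%) with a higher level in CD150hi and 452 (2.93%) with a higher level in CD150lo HSC. For the 549 genes the median gap in a mouse ran from 0.66 to 0.75 among WT and from 0.58 to 0.75 among 5A3+/del mice, and the median change of the gap was -0.01. For the 452 genes the median gap in a mouse ran from -0.71 to -0.62 among WT and from -0.77 to -0.62 among 5A3+/del mice, and the median change was -0.01. The gap was wider in 5A3+/del mice for 496 of the 1001 genes and narrower for 505. Of these genes, 67 (6.69%) had an unadjusted p under 0.05 for the gap change, against 4.11% of all genes, and 18 (1.80%) did not overlap, against 0.604%. These shares are partly set by the choice, since the median 95% interval of the called genes reached 0.55 to either side, against 0.59 for all genes. The whole 95% interval of the change lay within 1 for 780 of them (77.9%).

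Counts within each genotype were close as well. The gap passed the test in WT mice for 374 genes and in 5A3+/del mice for 370 genes, and 226 genes were in both lists, which is 60.4% of the WT list and 61.1% of the 5A3+/del list. Of the 148 genes called in WT alone and the 144 called in 5A3+/del mice alone, 0 passed the limma test of the gap change, and 43 (29.1%) and 41 (28.5%) had an unadjusted p under 0.05, against 4.11% of all genes. These genes were chosen for a call in a single genotype, so an excess of small p is built into that choice. None of these calls in a single genotype was thus shown to be a difference between genotypes.

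The genes with the most certain average gap show the biology of the sort. The 20 genes described next, 10 per direction with the smallest adjusted p for the average gap, were chosen after their values were seen. Higher in CD150hi HSC were Slamf1, Sdpr (caveolae-associated cavin 2), Vwf (von Willebrand factor of platelets and endothelium), Clca1, Tenc1 (a tensin), Neo1 (the receptor neogenin), Tgm2 (transglutaminase 2), Gda (guanine deaminase), Aldh1a1 (retinaldehyde dehydrogenase) and Cd38 (an NAD-consuming surface enzyme). Among those higher in CD150lo HSC were Flt3 (the cytokine receptor of multipotent and lymphoid progenitors), Cd52, Cd53, Satb1 (a chromatin organizer of lymphoid cells), Plac8, Itgb5, H2-Ob, Tespa1 and the annotated gene Gm11428. The 95% interval of the gap change included 0 for 16 of the 20 genes. The 4 exceptions were Clca1, Neo1, Cd38 and Plac8, all at limma adjusted p = 0.999. An interval without 0 is an unadjusted p under 0.05 in limma, which 4.11% of all genes and 6.69% of the 1001 genes had. Choice by a small p for the average gap favors a small residual spread, so this count is partly set by the choice.

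Vwf, a marker of platelet-biased HSC, had gaps of 1.94, 2.04, 1.72, 2.01 and 2.05 in WT mice 1 to 5 and of 1.97, 2.13, 2.34, 1.60 and 1.82 in 5A3+/del mice 1 to 5. These ranges overlapped throughout, and the change was 0.02 with a 95% interval from -0.38 to 0.42. Flt3 was at 3.94, 2.08, 2.86, 2.36 and 3.11 normalized FPKM in CD150hi HSC of WT mice and at 27.2, 36.4, 20.3, 33.2 and 31.3 in their CD150lo HSC. In 5A3+/del mice Flt3 was at 3.46, 2.55, 3.12, 2.37 and 5.16 in CD150hi and at 39.9, 26.0, 24.4, 25.8 and 36.8 in CD150lo HSC. The Flt3 gap was -2.98 ± 0.50 (SD over 5 mice) for WT and -2.87 ± 0.25 for 5A3+/del mice, a change of 0.11 (95% interval -0.44 to 0.66). Intervals of similar width around 0 were found for Satb1 (change -0.03, -0.43 to 0.37), Tgm2 (-0.03, -0.44 to 0.38), Tenc1 (0.04, -0.44 to 0.51) and Cd52 (0.13, -0.41 to 0.67).

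Plac8, a small cysteine-rich protein of myeloid and lymphoid cells, was the gene of these 20 with the largest estimated change. It was at 2.78, 1.99, 3.31, 2.63 and 3.22 normalized FPKM in CD150hi HSC of WT mice 1 to 5 and at 1.72, 10.6, 8.31, 5.87 and 6.47 in those of 5A3+/del mice 1 to 5. In CD150lo HSC Plac8 was at 20.1, 18.6, 27.6, 22.3 and 21.1 in WT and at 14.4, 26.7, 22.7, 15.8 and 22.7 in 5A3+/del mice. In 4 of 5 5A3+/del mice the CD150hi level stood above every WT level, with mouse 1 below them all. The gap was -2.60 ± 0.15 (SD over 5 mice) for WT and -1.61 ± 0.52 for 5A3+/del mice, so the change was 0.99 ± 0.25 (SE), with 0.999 as the limma adjusted p.

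Cd38 had gaps of 0.70, 1.13, 1.29, 0.87 and 1.23 in WT and of 1.85, 1.40, 1.62, 1.77 and 1.73 in 5A3+/del mice, without overlap. Its change was 0.63 ± 0.18 (SE), at limma adjusted p = 0.999. Neo1 and Clca1 had wider gaps in 5A3+/del mice by 0.63 ± 0.22 (SE) and 0.42 ± 0.19 with overlapping ranges. Evc2, which encodes a protein of the primary cilium in Hedgehog signaling and was singled out by earlier results on these data, had gaps of 1.69, 1.47, 1.32, 1.31 and 1.47 in WT and of 0.33, 0.90, 1.19, 0.89 and 0.85 in 5A3+/del mice. Evc2 was at 0.0247 to 0.426 normalized FPKM in CD150lo HSC of WT mice, with 11 to 95 fragments, and at 0.881 to 2.05 in those of 5A3+/del mice, so its narrower gap lay on the CD150lo side. The change of the Evc2 gap was -0.62 ± 0.19 (SE), again at limma adjusted p = 0.999, and with a pseudocount of 0.1 in place of 1 it was -2.02.

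**Figure D2:**
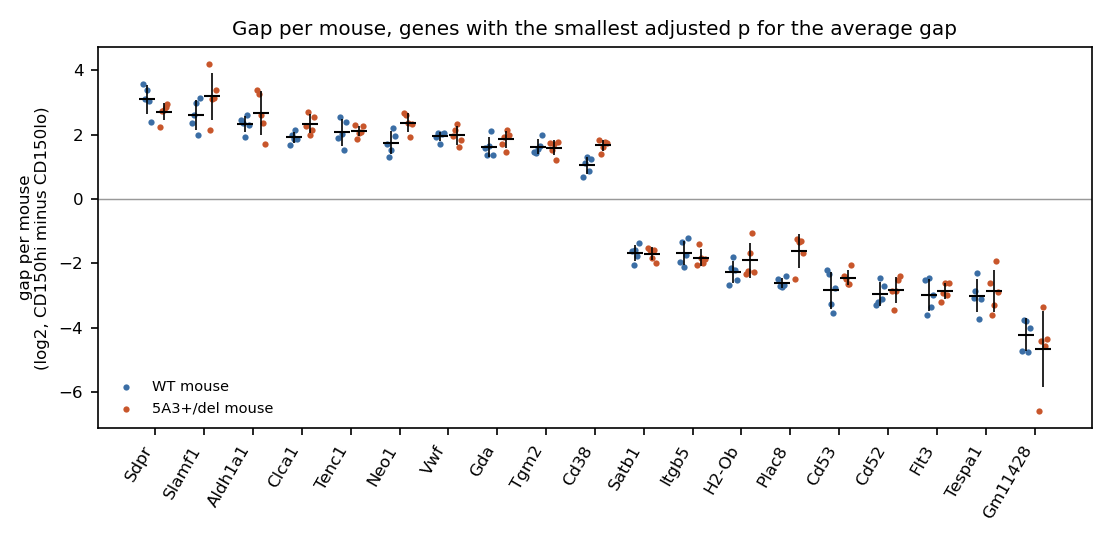
Gap per mouse (y axis, log2 units) of 19 of the 20 genes with the smallest adjusted p for the average gap, ordered by that gap, with WT mice in blue, 5A3+/del mice in red, and the mean and SD of 5 mice as a black line. The genotypes overlap for every gene shown except Cd38, and Plac8 has 4 of 5 5A3+/del mice closer to 0 than the WT mice.

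The genes of the deleted interval were examined to ask whether the loss of 1 copy lowered both populations alike. The summed level of the 8 genes kept (Mll5, Armc10, Psmc2, Dnajc2, Orc5, Pmpcb, Napepld and 5031425E22Rik) was 111 to 124 normalized FPKM in CD150hi and 107 to 133 in CD150lo HSC of WT mice. In 5A3+/del mice the sum was 55.2 to 77.1 in CD150hi and 56.9 to 70.1 in CD150lo HSC, below every WT library. None of the 8 passed the test of the gap change. The 95% interval included 0 for 7 of them and excluded it for 1 (12.5%, against 4.11% of all genes). Mll5, a chromatin regulator with the highest level of the interval genes, had a change of -0.18 (-0.58 to 0.22), and Psmc2, a proteasome ATPase, had -0.09 (-0.68 to 0.50). Dnajc2, a ribosome-associated chaperone, had a change of -0.11 (-0.65 to 0.42), and Orc5, of the origin recognition complex, had 0.22 (-0.31 to 0.75). For Armc10 the change was 0.11 (-0.69 to 0.91), for Pmpcb 0.02 (-0.47 to 0.51) and for Napepld 0.41 (-0.26 to 1.08).

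The exception was 5031425E22Rik, a transcript annotated as protein coding that lies beside Mll5 at chr5:22937628-22939737 (mm9). The paper describes it as a non-coding RNA with lower expression in 5A3+/del HSC. In CD150hi HSC its mean level was 6.38 ± 1.65 (SD) normalized FPKM for WT and 6.19 ± 2.70 for 5A3+/del mice. In CD150lo HSC its mean was 8.02 ± 0.74 for WT and 4.53 ± 1.32 for 5A3+/del mice, so the lower mean lay on the CD150lo side. Its gaps were -0.01, -0.60, -0.58, 0.09 and -0.48 in WT and 0.90, -0.30, -0.05, 0.54 and 0.59 in 5A3+/del mice, with overlap between the genotypes. The change was 0.65 ± 0.26 (SE) at limma adjusted p = 0.999. A further list of 6 genes held those at the ends of the deletion and deleted genes that the study did not call expressed. Of these, Srpk2, at an end of the deletion, alone passed the filter, with a change of -0.07 (-0.58 to 0.44).

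The largest group difference among the gene lists was in neutrophil granule genes, which serve here as markers of neutrophils. All 5 of the list's 9 members that passed the filter, S100a8, S100a9, Camp, Ngp and Ltf, had a lower gap in 5A3+/del mice at an unadjusted p under 0.05 (2.11% of all genes did), and none passed the adjusted test. Their median change was -2.59, against -0.0006 for all genes. S100a8, a subunit of calprotectin, was at 421, 135, 16.2, 57.3 and 137 normalized FPKM in CD150hi HSC of WT mice 1 to 5 and at 631, 61.4, 7.20, 112 and 103 in their CD150lo HSC. In 5A3+/del mice 1 to 5, S100a8 was at 0.138, 64.0, 6.86, 8.76 and 11.5 in CD150hi HSC, where the first value stands for 0 fragments, and at 12.0, 33.3, 180, 75.0 and 64.1 in CD150lo HSC. CD150lo thus exceeded CD150hi HSC in 5A3+/del mice 1, 3, 4 and 5, while WT mice differed in either direction.

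Ngp, the neutrophilic granule protein, had gaps of 0.51, 1.97, 2.73, -1.84 and -0.57 in WT and of -0.17, -2.49, -3.91, -2.55 and -4.04 in 5A3+/del mice, and its change was -3.19 ± 0.92 (SE). Camp, the cathelicidin of neutrophil granules, had gaps of 0.21, 0.85, 1.33, -1.01 and 0.47 in WT and of -0.72, -0.38, -2.76, -1.84 and -2.55 in 5A3+/del mice, and its change was -2.02 ± 0.54 (SE). Both sets of gaps overlapped between the genotypes. Ltf (lactoferrin) had a change of -1.29 ± 0.40 (SE), and S100a9, the partner of S100a8 in calprotectin, had -2.59 ± 1.14. The S100a9 gap was 1.45 in 5A3+/del mouse 1, where the S100a8 gap was -3.52. The latter rested on a CD150hi library without S100a8 fragments, so this difference between the members cannot be told apart from loss at the floor. The genes of this list mark the same cell type, so they are not independent.

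The summed deposited FPKM of all 9 neutrophil markers was 59.9 to 912 in WT CD150hi, 12.6 to 1356 in WT CD150lo, 15.1 to 129 in 5A3+/del CD150hi and 20.3 to 361 in 5A3+/del CD150lo HSC. The defining markers Ly6g, Mmp8, Mmp9 and Retnlg failed the filter, and Ly6g was above 0 in 4 of the 20 libraries. The lineage antibodies of the sort included Gr-1, which binds neutrophils. In bulk libraries, more cells of a type cannot be told apart from more RNA per cell. Whether carried-over neutrophils, free RNA or transcripts of HSC gave these values was not tested. Without each mouse in turn the list's median change ran from -3.15 to -1.91.

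**Figure D3:**
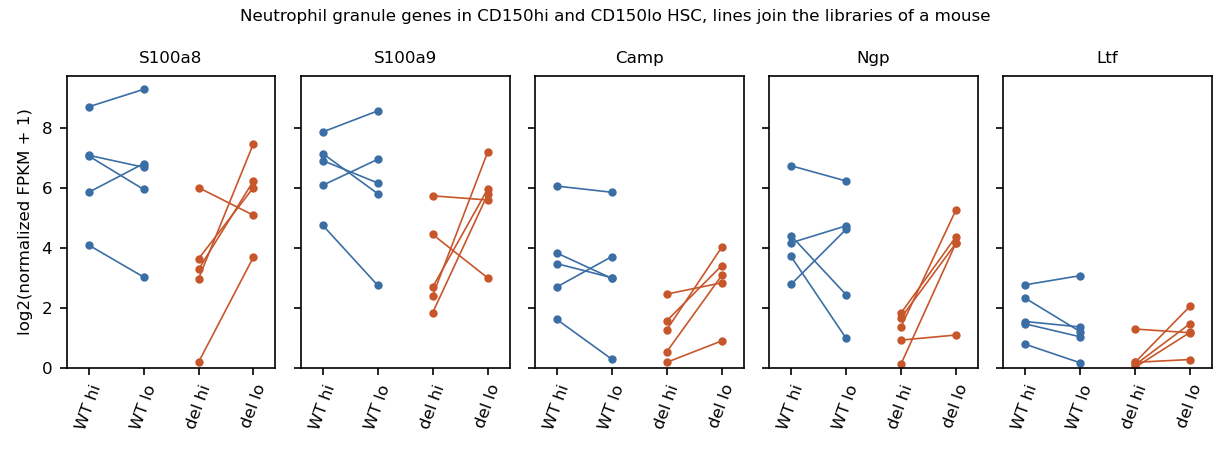
Levels of 5 neutrophil granule genes (y axis, log2 of normalized FPKM + 1) in CD150hi (hi) and CD150lo (lo) HSC of 5 WT mice in blue and 5 5A3+/del mice in red, with a line joining the libraries of a mouse. Lines of WT mice run up or down, and those of 5A3+/del mice 3, 4 and 5 rise from CD150hi to CD150lo for all 5 genes.

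Markers of other cells moved less. Of the macrophage list 6 of 8 genes were kept, 5 with a lower gap in 5A3+/del mice, none at an unadjusted p under 0.05, with a median change of -0.35. The smallest p belonged to C1qb of the complement cascade, with a change of -1.07 (95% interval -2.20 to 0.07). The summed macrophage FPKM overlapped among the groups, at 7.41 to 28.2 in WT CD150hi, 18.6 to 53.4 in WT CD150lo, 5.39 to 24.4 in 5A3+/del CD150hi and 14.4 to 48.0 in 5A3+/del CD150lo HSC. Of the red cell list 4 of 7 genes were kept, 3 with a change above and 1 below 0, and the median change was 0.38. Hbb-b2, a beta globin gene, had gaps of -1.67 to -0.72 in WT and of -0.68 to -0.19 in 5A3+/del mice, without overlap and with a change of 0.55 ± 0.21 (SE), but the near-identical Hbb-b1 shares reads with it (change 0.49, -0.02 to 0.99). Hba-a1, an alpha globin gene, went the other way, at -0.55 (-1.23 to 0.13). The summed red cell FPKM was 13.9 to 45.3 in WT CD150hi, 46.5 to 96.1 in WT CD150lo, 17 to 50.8 in 5A3+/del CD150hi and 25.8 to 61.7 in 5A3+/del CD150lo HSC. B cell genes (4 of 9 kept), T cell genes (2 of 8), mast cell and basophil genes (1 of 6) and stromal and endothelial genes (3 of 9) had no member at an unadjusted p under 0.05, and their median changes were -0.17, -0.05, -0.39 and 0.25.

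Gene lists tied to HSC identity had a gap in both genotypes. Of 32 HSC self-renewal genes, 17 were called higher in CD150hi (3.56% of all genes were) and 1 in CD150lo HSC (2.93%) for the average gap, and the median gap of the list was 0.33 to 0.71 in WT mice and 0.40 to 0.56 in 5A3+/del mice. The median change was -0.02, and it turned to 0.01 with median scaling. Tcf15, a transcription factor of quiescent HSC, was the sole member at an unadjusted p under 0.05 (3.1%, against 4.11% of all genes). It had gaps of 1.08, -1.37, 1.24, -0.41 and 0.93 in WT and 2.14, 1.78, 1.06, 1.19 and 1.35 in 5A3+/del mice. Its 5A3+/del gaps were all positive while WT gaps had both signs, and the ranges of the genotypes overlapped. The change was 1.21 ± 0.48 (SE, limma adjusted p = 0.999), and it ran from 0.79 to 1.44 when each mouse was left out. Since Tcf15 was named for the smallest p of its list, this range is no support. Esam, an adhesion molecule of HSC and endothelium, had a change of -0.33 (95% interval -0.69 to 0.03).

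Of 26 megakaryocyte and platelet genes kept, 11 were called higher in CD150hi HSC for the average gap (3.56% of all genes were). In CD150lo HSC 2 were called higher (2.93% of all genes were), and the median gap change was -0.01. The largest estimate was for Gp9, a subunit of the platelet receptor for von Willebrand factor, at -1.23 (95% interval -2.65 to 0.19). Of 17 lymphoid priming genes kept, 7 were called higher in CD150lo HSC, against 2.93% of all genes. Their median change was -0.01, which turned to 0.04 with median scaling and to 0.01 without normalization. Cd27 and Ikzf1, a costimulatory receptor and the lymphoid regulator Ikaros, had changes of -0.49 (-1.11 to 0.12) and -0.29 (-0.70 to 0.12).

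Of 12 granulocyte and monocyte priming genes kept, 6 were called higher in CD150lo HSC, against 2.93% of all genes. A gap change below 0 was found for 8 of them (7716 of all 15409 genes had one), with a median of -0.12. Csf2rb, the shared receptor chain for IL-3, IL-5 and GM-CSF, went the other way with gaps of -1.02, -0.78, -0.53, -0.46 and -0.77 in WT and of 0.01, -0.39, -0.40, -0.30 and -0.28 in 5A3+/del mice. These did not overlap, and the change was 0.44 ± 0.17 (SE), although reads of the close paralog Csf2rb2 may be split with it. Elane, neutrophil elastase, had a change of -1.52 (95% interval -3.16 to 0.13). Of 11 erythroid genes kept, 5 had a change above and 6 below 0, with a median of -0.07 that turned to 0.02 with median scaling. The 2 members at an unadjusted p under 0.05 (18.2%, against 4.11% of all genes) went opposite ways: Klf1, the erythroid Kruppel-like factor, at -1.03 ± 0.42 (SE) with a mean level of 0.547 normalized FPKM, and Hbb-b2, given above, at 0.55.

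**Figure D4:**
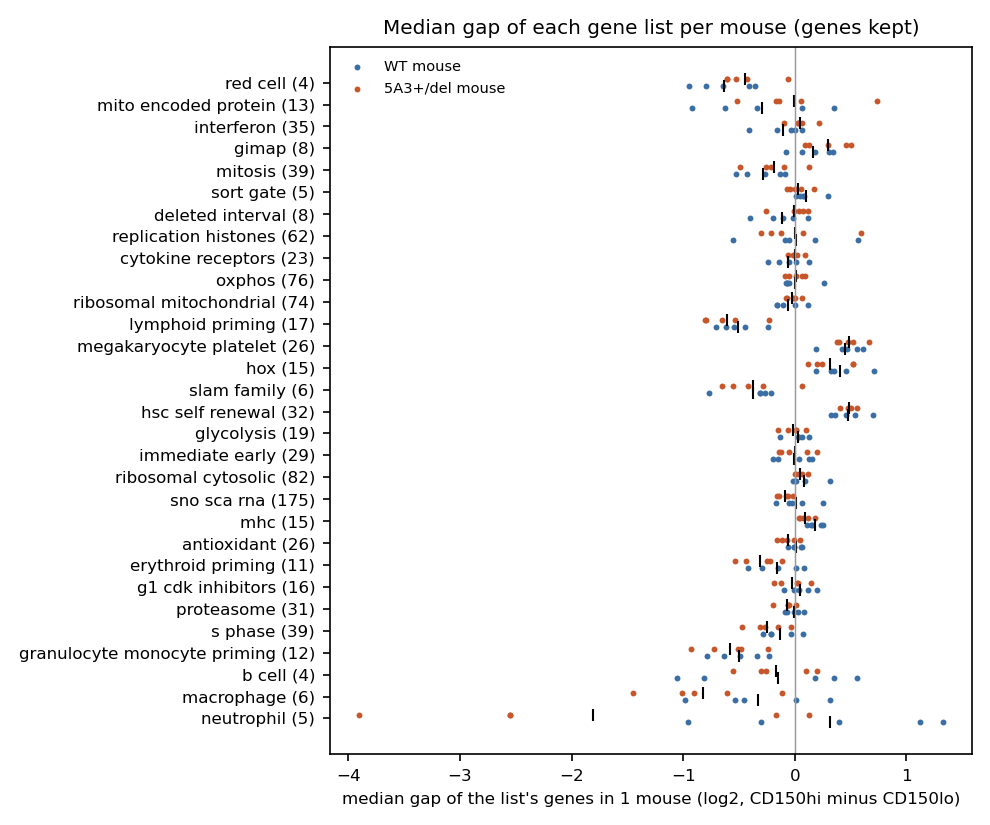
Median gap of the genes of each list in each mouse (x axis, log2 units), for lists with at least 4 genes kept, whose number is in parentheses, ordered by the median gap change, with WT mice in blue, 5A3+/del mice in red and the mean as a black bar. The genotypes overlap in every list, and the neutrophil list has the widest spread, from -3.91 to 1.33.

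Among metabolic and biosynthetic lists, mitochondrially encoded genes had the median farthest from 0. Of 76 nuclear genes for subunits of oxidative phosphorylation (OXPHOS), 39 had a change above and 37 below 0, with a median of 0.01. Ndufb7 of complex I had gaps of -0.06, -0.84, -0.25, -0.44 and 0.16 in WT and of 0.42, 1.02, 0.35, 0.50 and 0.12 in 5A3+/del mice, with overlap, and a change of 0.77 ± 0.24 (SE). Atp5d of the ATP synthase went down, at -0.44 (95% interval -0.87 to -0.01), and no other OXPHOS gene had an unadjusted p under 0.05. Ndufb7 and Atp5d made up 2.63% of the list, against 4.11% of all genes. Of the 13 protein genes of the mitochondrial genome, 12 had a change above 0 (49.9% of all genes did), with a median of 0.27 and none at an unadjusted p under 0.05. This median was 0.56 without WT mouse 1 and 0.42 without 5A3+/del mouse 1, and it fell to 0.10 without WT mouse 3, 0.04 without WT mouse 5 and 0.02 without 5A3+/del mouse 4. Their median gap was 0.35, -0.34, -0.62, 0.06 and -0.92 in WT mice and -0.52, -0.14, -0.16, 0.73 and 0.06 in 5A3+/del mice, which overlapped, and these transcripts come from a single molecule and share their variation.

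Of 74 mitochondrial ribosomal protein genes kept, 39 had a change above 0, with a median of 0.01, and 4 had a higher gap in 5A3+/del mice at an unadjusted p under 0.05 (5.41%, against 2% of all genes). Mrpl15 was among them, with gaps of -0.15, -0.08, -0.10, -0.09 and 0.08 in WT and of 0.78, 0.63, 0.08, 0.43 and 0.53 in 5A3+/del mice, and a change of 0.56 ± 0.17 (SE), with overlap in mouse 3. Mrpl21 and Mrpl9 had changes of 0.61 ± 0.23 (SE) and 0.69 ± 0.27. Of 82 cytosolic ribosomal protein genes kept, 26 had a change above 0, against 49.9% of all genes. None of the 82 had an unadjusted p under 0.05, and their median of -0.04 turned to 0.01 with median scaling. Glycolysis genes (19 kept, median -0.03, which turned to 0.01 with median scaling), antioxidant genes (26 kept, 19 below 0, median -0.07) and proteasome subunits (31 kept, 20 below 0, median -0.08) had no member at an unadjusted p under 0.05.

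Of 39 S phase genes kept, 29 had a change below 0 (7716 of all 15409 genes did), with a median of -0.12. None had an unadjusted p under 0.05, and genes of this list are known to vary together, so they are not independent. The smallest p values belonged to Rrm1 of ribonucleotide reductase (change -0.48, -1.0 to 0.05), Rfc4 of the clamp loader (-0.49, -1.05 to 0.06) and Gmnn, the licensing inhibitor geminin (-0.60, -1.29 to 0.09). The median S phase gap was -0.03, -0.28, 0.08, -0.21 and -0.21 in WT and -0.47, -0.32, -0.15, -0.27 and -0.04 in 5A3+/del mice, with overlap. Mitosis genes were spread the other way (23 of 39 above 0, median 0.12), and Ccnb2, a mitotic cyclin, had a change of 1.76 ± 0.67 (SE) while Kif20a, a mitotic kinesin, had -0.63 ± 0.22. Of 16 genes for G1 cyclins, their kinases and inhibitors kept, 7 were above 0, with a median of -0.07 and none at an unadjusted p under 0.05.

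Of 35 interferon response genes kept, 27 (77.1%) had a change above 0, against 49.9% of all genes, with a median of 0.14. This median stayed between 0.07 and 0.21 under the alternatives tried, which used the same libraries, so its range is no support. The median gap in a mouse ran from -0.41 to 0.06 among WT and from -0.09 to 0.22 among 5A3+/del mice, with overlap. The 2 interferon genes at an unadjusted p under 0.05, both with a higher gap (5.71%, against 2% of all genes), were Gbp3, a guanylate-binding protein, and Ifit1, an inhibitor of viral translation. Gbp3 had gaps of -0.45, -0.08, -0.12, 0.06 and -1.07 in WT and of 0.35, 0.85, 0.39, 0.25 and -0.01 in 5A3+/del mice, a change of 0.69 ± 0.25 (SE). Ifit1 had gaps of -0.52, -0.52, -0.98, -0.60 and -0.17 in WT and of -0.80, 0.34, 0.09, 0.61 and 0.02 in 5A3+/del mice, a change of 0.61 ± 0.27 (SE). Both overlapped between genotypes, and the genes of this list are known to respond together, so they are not independent.

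The remaining lists were without a shared direction. Immediate early genes (29 kept, median -0.03, which turned to 0.02 with median scaling), genes of the major histocompatibility complex (15 kept, -0.06), SLAM family genes (6 kept, -0.02, which turned to 0.03 with median scaling), Gimap genes (8 kept, 0.13) and Hox genes (15 kept, -0.02, which turned to 0.07 with median scaling and to 0.04 without normalization) had no member at an unadjusted p under 0.05. Among 23 cytokine receptor genes kept, with a median of 0.03, Csf2rb was the sole such member (4.35%, against 4.11% of all genes). Of 62 replication histone genes kept, with a median of 0.06, Hist2h3c2 had a change of 1.25 ± 0.47 (SE) and Hist2h2ac -0.72 ± 0.29, and histone genes of one cluster are near-identical, so their reads may be split. The 4 sex-linked genes kept had no member at an unadjusted p under 0.05, with a median change of 0.01.

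The genes whose gaps did not overlap between genotypes are described next, although none passed the adjusted test. By the rule for named genes these were the 10 with a higher and the 10 with a lower gap and the smallest unadjusted p, and since non-overlap chose them, it is a description and no support. Of the 20, 10 were protein coding, and the others were pseudogenes, antisense and other non-coding RNA genes. Over all 93 such genes 72.0% were protein coding, against 79.6% of the genes tested, and their median level was 4.30 normalized FPKM, against 5.60. In 6 of the 20 at least 1 library lay under the floor of 3 fragments.

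Mansc1, which encodes a membrane protein with a MANSC domain (chr6:134559228-134582506, mm9), had the smallest unadjusted p and the highest level of the protein-coding genes among them. It was at 64.7, 45.8, 39.3, 65.7 and 47.0 normalized FPKM in CD150hi HSC of WT mice 1 to 5 and at 24.0, 19.1, 24.2, 32.0 and 17.8 in their CD150lo HSC. The 5A3+/del mice had 28.9, 42.2, 30.9, 30.8 and 21.9 in CD150hi and at 27.4, 34.9, 22.5, 30.5 and 25.3 in CD150lo HSC. CD150hi HSC of WT mice stood 1.13 ± 0.30 (SD, n = 5) above CD150lo HSC, whereas in 5A3+/del mice the gap was 0.12 ± 0.25 (n = 5) and had both signs. The change was -1.01 ± 0.20 (SE, 95% interval -1.45 to -0.57), with unadjusted p = 0.000339 in limma and 0.999 after adjustment. Leaving out each mouse in turn moved the change between -1.13 and -0.93. Since Mansc1 was chosen for gaps without overlap, the sign of these estimates was fixed in advance, and their range is no support. Mansc1 was also among the 1001 genes called for the average gap.

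Klf8, a Kruppel-like transcriptional repressor on the X chromosome, crossed from one side to the other. It was at 2.10, 3.21, 2.93, 3.06 and 1.95 normalized FPKM in CD150hi and at 3.30, 3.79, 5.56, 4.40 and 3.65 in CD150lo HSC of WT mice. In 5A3+/del mice Klf8 was at 4.98, 4.52, 3.67, 4.13 and 4.83 in CD150hi and at 3.94, 3.28, 3.62, 2.61 and 2.16 in CD150lo HSC. Every WT mouse had more Klf8 in CD150lo HSC and every 5A3+/del mouse more in CD150hi HSC, the latter by as little as 0.02 in mouse 3. The gap was -0.49 ± 0.22 (SD over 5 mice) for WT and 0.41 ± 0.32 for 5A3+/del mice, and the change was 0.90 ± 0.20 (SE, limma adjusted p = 0.999), with 252 to 843 fragments per library behind it. Cyth1, which encodes cytohesin 1, an activator of ARF GTPases, went the opposite way, with gaps of 0.37, 0.31, 0.11, 0.17 and 0.23 in WT and of -0.74, -0.27, -0.34, -0.43 and -0.42 in 5A3+/del mice. Its change was -0.68 ± 0.16 (SE), and over all genes 13 had a gap of one sign in all WT mice and of the other sign in all 5A3+/del mice.

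Among other protein-coding genes with a higher gap in 5A3+/del mice, P2rx6, a subunit of ATP-gated channels, had gaps of -0.40 to 0.03 in WT and of 0.31 to 1.46 in 5A3+/del mice, at low levels of 0.238 to 3.10 normalized FPKM. Dgcr14, a nuclear protein tied to splicing, had gaps of -0.94 to 0.04 in WT and of 0.16 to 0.60 in 5A3+/del mice, a change of 0.85 ± 0.21 (SE). Psma8, the germ cell form of a proteasome subunit, changed by an estimate of 0.94 ± 0.23 (SE), and Zmat1, a zinc finger gene on the X chromosome, by 0.79 ± 0.20. Sept10, a septin whose symbol the table holds in the form of a date, completed these genes. With a lower gap were Shroom1, an actin-binding protein, with -1.06 ± 0.25 (SE) at low levels, and Wdr70, a WD repeat protein, with -1.05 ± 0.27.

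The library kit does not mark strand, so reads of these genes cannot be told apart from those of an overlapping gene. Among the protein-coding genes, P2rx6 overlaps Slc7a4 (change 0.02, -0.49 to 0.52), Cyth1 overlaps the pseudogene Gm11737 (0.74, -0.25 to 1.74) and a U6 gene (-0.03, -0.56 to 0.50), Sept10 overlaps SNORA17 (0.08, -0.61 to 0.78), and Shroom1 and Zmat1 overlap non-coding genes that failed the filter. Gm12932, an antisense gene at chr4:124760101-124762191 (mm9), had gaps of -0.18, 0.96, -0.26, -0.54 and 0.60 in WT and of -1.04, -2.17, -1.36, -1.51 and -2.59 in 5A3+/del mice. It rested on 0, 16, 17, 32 and 0 fragments in CD150hi HSC of 5A3+/del mice 1 to 5, and its change was -1.85 ± 0.36 (SE). Gm15849 overlaps Tmcc2 on the other strand, whose own change was -0.31 (95% interval -0.73 to 0.11). Gm15511 overlaps Rora on the other strand, whose change was 0.27 (-0.19 to 0.73). The pseudogene Gm7162 lies within Airn, whose change was -0.55 (-1.15 to 0.04), and Gm12483 lies within Smc2, whose change was -0.19 (-0.87 to 0.49). AC134560.1, an annotated microRNA gene within Synj1, had 4 to 51 fragments in CD150hi HSC of WT mice and 0 to 5 in those of 5A3+/del mice, and its change of -2.98 ± 0.70 (SE) is that of a gene near the floor.

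Snord72, a box C/D small nucleolar RNA, had the largest estimate among the 10 genes with a higher gap in 5A3+/del mice. Its sequence is shown because it is short and lies on the same strand within Rpl37, so that reads of the unspliced host cannot be told apart from it. It spans chr15:5068404-5068484 on the plus strand (mm9), 81 bases, and is given 5' to 3' from the mm9 genome with the core of box C (TGATG) and the last box D (CTGA) in capitals.
Snord72: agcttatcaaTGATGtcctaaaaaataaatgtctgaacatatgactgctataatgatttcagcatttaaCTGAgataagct
Of 410 annotated small nucleolar RNA genes of 70 to 100 bases, 72.9% hold TGATG followed by CTGA on their own strand, so these letters are usual for the class and say nothing of the change.

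Snord72 was at 27.8, 21.5, 14.8, 45.1 and 39.6 normalized FPKM in CD150hi and at 38.6, 41.4, 58.6, 72.7 and 63.7 in CD150lo HSC of WT mice. The 5A3+/del mice had 127, 50.2, 66.1, 53.8 and 89.5 in CD150hi and at 74.1, 63.0, 37.1, 16 and 59.8 in CD150lo HSC. All WT mice had more in CD150lo HSC, and 4 of 5 5A3+/del mice more in CD150hi HSC. The change was 1.63 ± 0.37 (SE, limma adjusted p = 0.999), from 33 to 276 fragments per library, while Rpl37 itself had a change of 0.09 (95% interval -0.27 to 0.45). Of the 175 small nucleolar and Cajal body RNA genes kept, 12 (6.86%, against 4.11% of all genes) had an unadjusted p under 0.05, 5 with a higher and 7 with a lower gap. The median change of the list was -0.05, and it was above 0 without WT mouse 3 (0.05), WT mouse 4 (0.02), 5A3+/del mouse 1 (0.02) or 5A3+/del mouse 5 (0.03). Scarna13, a Cajal body RNA, had gaps of -1.57, -1.76, -1.03, -0.76 and -1.41 in WT and of 1.63, 0.68, 0.61, -1.22 and 1.26 in 5A3+/del mice, where mouse 4 overlapped with WT. Its change was 1.90 ± 0.46 (SE), and SNORA43 had -2.90 ± 0.85, so members of this class with large estimates went both ways.

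**Figure D5:**
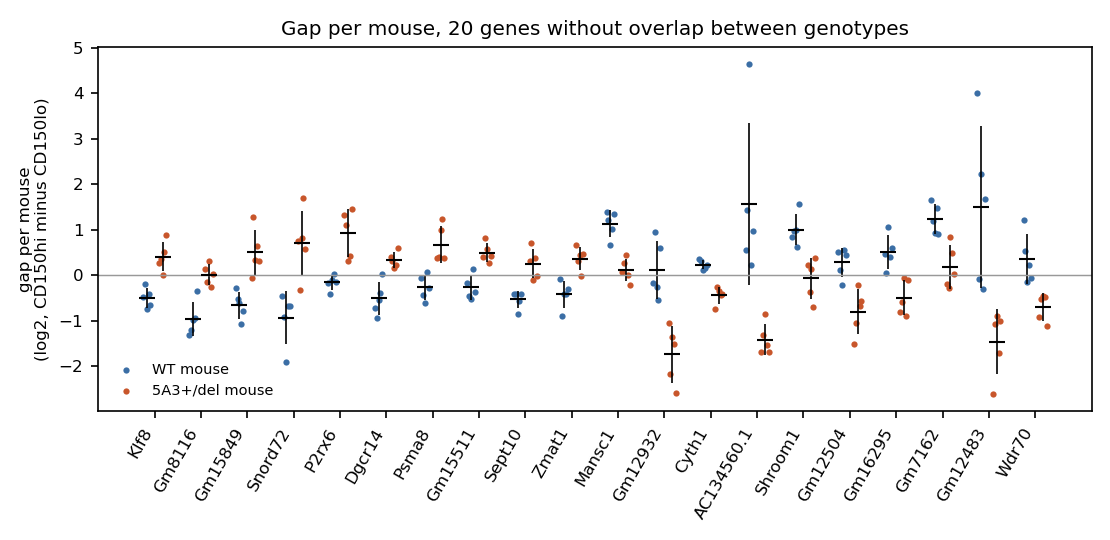
Gap per mouse (y axis, log2 units) of the 20 genes with the smallest unadjusted p among those whose gaps do not overlap between genotypes, 10 with a higher gap in 5A3+/del mice at the left and 10 with a lower gap at the right, with WT mice in blue, 5A3+/del mice in red and the mean and SD of 5 mice as a black line. The spread of AC134560.1 and Gm12483 among WT mice is wide, with single mice at 4.65 and 4.01.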

How the data were processed

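RNA-seq libraries of both HSC populations, and of CD150neg progenitors not analysed here beyond filtering and normalization, were mapped by the authors to mm9, and the submitters' processing notes name Bowtie version 0.12.2 and HTSeq. The authors deposited a table of FPKM for 30025 genes in 29 libraries. Positions and exon lengths came from GENCODE for mm9, which held 29279 (97.52%) of the identifiers. FPKM times exon length gave steps of whole fragments for 98.23% to 98.64% of low values, within 0.02 fragments, from which depth was taken.

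Genes that reached an FPKM of 1 in 4 or more of the 29 libraries were kept, log2(FPKM + 1) was quantile normalized, and gaps were compared by limma version 3.58.1 in R version 4.3.3, two-sided, with Benjamini-Hochberg adjustment over all genes kept and a threshold of 0.05. With a pseudocount of 1, fold changes of low genes are understated. The coverage measure in the study's methods is not in the table. Drawing and reading used Python version 3.11.15. The pipeline was tested on simulated data.

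Groups came from the genotype and cell type in the labels, and mouse codes in the labels paired populations. Within a genotype, deviations of the libraries of a mouse had correlations of -0.04 to 0.15, and 5 of 10 CD150hi libraries matched their own mouse best. Genotypes share no mice.

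Members and gene lists were chosen with earlier results of these data known. Named genes were up to 30 genes past the threshold, otherwise the 10 per direction with the smallest p and no overlap, interval and sorting genes, up to 3 genes of each other list by p, Xist and Evc2. The remaining neutrophil markers and the 20 average-gap genes were added after their values were seen. Alternatives covered the pseudocount, filter, normalization, block, variance model, age, weights, a neutrophil covariate and leaving out each mouse. One of the named genes is not reported here.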

Additional observations from a re-analysis of the deposited data

Results flagged for a closer look

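Of 190 sets of 5 mice examined, 5 had a mouse farther from the others than Dixon's 95% limit allows (2.63%), and chance alone gives about 1 in 20. The AC134560.1 gap was 4.65 in WT mouse 3, with the other WT mice at 0.23 to 1.44. The median OXPHOS gap was 0.26 in WT mouse 5, against -0.08 to -0.05 in the other WT mice. The median gap of SLAM family genes was -0.77 in WT mouse 3, against -0.31 to -0.21. The median gap of the sorting genes was 0.29 in WT mouse 4, against 0.01 to 0.08. The CD150lo library of WT mouse 1 had 38797569 fragments, the highest depth of its group.

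For 4 of the named genes the gap had one sign in all 5 WT mice and the other sign in all 5 5A3+/del mice, and the difference did not pass the adjusted test. The change was 0.90 for Klf8 and -0.68 for Cyth1. It was -2.98 for AC134560.1 and -1.003 for Gm16295, both of which had libraries under 3 fragments.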

How the results depend on the processing

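The count of genes called for the gap change was 0 under 22 of 24 alternatives, 1 with no filter on low values (AL645623.1, limma adjusted p = 0.0174, listed at 0.566 to 1.04 FPKM in the 5 CD150lo libraries of 5A3+/del mice and at 0 in the other 15 HSC libraries) and 0 to 1 when each mouse was left out. Pairing by mouse changed no call: with no replicate block 0 genes passed (569 at an unadjusted p under 0.05), and with the replicate block as a random effect 0 passed (643). The average gap called 572 genes with FPKM of at least 10 in 1 library, where 8223 genes were tested, and was within 1.5 times of 1001 under the others. Among median gap changes of lists under alternatives, 820 moved by less than the spread between mice and 18 by more. With a pseudocount of 0.1 the erythroid median was -0.49, the sorting gene median 0.25 and the B cell median -0.85. With FPKM of at least 10 the erythroid median was 0.44, the SLAM family median 0.31 over 2 genes and the B cell median 0.67 over 1 gene, and with FPKM of at least 1 in 5 of 20 libraries the last was 0.68. Leaving out each mouse gave erythroid medians of -0.31 to 0.10 and sorting gene medians of 0.0056 to 0.27. Array weights and a neutrophil covariate were chosen after seeing the data. Weights gave a proteasome median of -0.0034. The covariate, which removes the neutrophil signal by construction, gave medians of -0.19 for neutrophil, -0.37 for S phase, -0.22 for antioxidant, 0.11 for histocompatibility, 0.14 for mitochondrial ribosomal and -0.22 for mitochondrially encoded genes. The cause of these shifts was not tested. Of 3312 values of the 140 named genes, 3251 kept their sign and 0 passed. Many of these genes were chosen by a small p in these data, and the alternatives used the same libraries, so the kept signs are no support. Depth limits genes near the floor of 3 fragments.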
